A study of Homo sapiens with 2 samples.

Results

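The block of miRBase entries numbered miR-4417 to miR-4540 was examined on miRNA arrays of exosomal RNA from glioblastoma cells, after boron neutron capture therapy (BNCT) and without treatment. Members were the probes that carry a single miRNA name in that number range, with any letter and arm, leaving out miR-4433, miR-4454 and miR-4485. This gave 131 of the 2632 miRNA probes on the array, for 116 of the numbers, and none of their spots carried a failure flag. The cells were U87MG delta EGFR, a glioblastoma line that carries a truncated epidermal growth factor receptor. The BNCT sample came from cells held for 2 hours with 25 ppm of a p-boronophenylalanine-fructose complex and irradiated with thermal neutrons, and exosomes were taken from the medium of day 3. The control sample came from the same line, labelled as non-treated, and both were grown with exosome-depleted serum. Both samples carry the same treatment text in the labels, which do not say separately how the control cells were handled. They also speak of RNA extracted from cells while the titles name exosomes. Each group had 1 array, so there is no replicate, no test and no p-value, and compound, irradiation, handling and array slide cannot be told apart.

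A miRNA is a short RNA cut from a hairpin, and its seed, bases 2 to 8 of the mature strand, pairs with target messenger RNAs. Most entries of this number range were registered after small RNA sequencing of normal and malignant human B cells, and few have a well-studied function. Many hairpins lie inside other genes, and a hairpin on the host's own strand can be made from the host's transcript. Vesicle RNA is known to hold fragments of many RNA classes beside miRNAs, and an array probe reports what hybridizes to it, whatever the source of the fragment.

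Mature sequences were taken from RefSeq (GRCh38.p14), which matched 123 of the 131 members by name. They are written 5′ to 3′ with the seed in capitals. The brightest members are shown first, because they hold over 50% of the block's signal on each array, each with the position of its mature strand. miR-4508, also among the 12 brightest, is named only.
miR-4463: gAGACUGGgguggggcc (chr6:75428446-75428462, plus strand)
miR-4530: cCCAGCAGgacgggagcg (chr19:39409629-39409646, minus strand)
miR-4516: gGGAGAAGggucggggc (chr16:2133120-2133136, plus strand)
miR-4484: aAAAGGCGggagaagcccca (chr10:125819803-125819822, plus strand)
miR-4466: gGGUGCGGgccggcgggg (chr6:156779710-156779727, minus strand)
miR-4488: aGGGGGCGggcuccggcg (chr11:61508599-61508616, plus strand)
miR-4442: gCCGGACAagagggagg (chr3:25664875-25664891, minus strand)
miR-4446-3p: cAGGGCUGgcagugacaugggu (chr3:113594918-113594939, plus strand)
miR-4505: aGGCUGGGcugggacgga (chr14:73758749-73758766, plus strand)
miR-4478: gAGGCUGAgcugaggag (chr9:122120147-122120163, minus strand)
miR-4462: uGACACGGaggguggcuugggaa (chr6:37555366-37555388, minus strand)

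Of the members with the lowest share of G and C, 4 are shown for contrast, picked by sequence alone.
miR-4503: uUUAAGCAggaaauagaauuua (chr14:36952358-36952379, minus strand)
miR-4477b: aUUAAGGAcauuugugauugau (chr9:63819623-63819644, plus strand)
miR-4509: aCUAAAGGauauagaagguuuu (encoded at 3 places on chromosome 15)
miR-4424: aGAGUUAAcucaaaauggacua (chr1:178677763-178677784, plus strand)
All 4 of these read close to the blank spots, which are described next. miR-4503 had 240.6 units on the BNCT array and 245.8 on the control array, and miR-4477b had 256.0 and 267.7 units on the same arrays in that order. miR-4509 had 246.0 units in BNCT and 256.6 in control, and miR-4424 had 253.8 units in BNCT and 251.3 in control.

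The signal of a spot is its median brightness in the red channel, in scanner units. Each array has 312 blank spots, whose mean without the top and bottom 5% was 254.9 units on the BNCT array and 258.1 on the control array. A probe was called detected above that mean + 2 SD, at 267.5 units in BNCT and 272.0 in control. By that rule 16 blank spots in BNCT and 17 in control were themselves above the limit. Spots that carry no probe averaged 289.0 units in BNCT and 301.3 in control, so many members called detected were dimmer than those. Of the 112 spots without a probe on each array, 110 in BNCT and 112 in control were above the limit. A detected call therefore does not set a member apart from spots without a probe. As a check of the labelled cell type, 8 miRNAs common in glioblastoma and glial lines were read. Of these, 2 were detected on each array and miR-24-3p alone on both, while miR-21-5p, miR-100-5p, miR-125b-5p and miR-10b-5p were under the limit on both. Of 7 miRNAs of B cells and other leukocytes, 2 were detected in BNCT and none in control, and miR-150-5p, miR-142-3p and miR-142-5p were under the limit on both. The red cell and serum list had 2 of 5 detected in BNCT and 0 in control, and the neuronal list 2 of 4 and 0. Of all miRNA probes, 36.2% were detected in BNCT and 28.6% in control, so detection of a few listed miRNAs does not mark a cell type. Summed over the lists, signal above the blank mean was 687.3 units in BNCT and 383.3 in control for glial lines (660.7 and 361.9 of it from miR-24-3p), 40.7 and 0.8 for leukocytes, 33.3 and -6.7 for red cells and serum, and 31.9 and 10.5 for neurons. Their part in the results for the members was not tested.

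The signal of the block was concentrated in a few members: of the summed signal over the blank mean in detected members, the 12 brightest held 57.2% in BNCT and 63.7% in control. On the BNCT array 62 of 131 members were detected (47.3%, 95% Wilson interval 39 to 55.8), where 36.2% of all miRNA probes were. On the control array 45 were detected (34.4%, 26.8 to 42.8), where 28.6% of all probes were. Detection on both arrays was found for 44 members (33.6%, against 23.9% of all probes) and on neither for 68 (51.9%, against 59.2%). The intervals cover counting error over probes, which are not replicates.

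Over the blank mean, members spread widely. In BNCT they ran between -15.1 and 521 units with a median of 10.8 and a 90th percentile of 136. In control they ran between -22.2 and 368 units with a median of 5.69 and a 90th percentile of 76.0. All other miRNA probes had medians of 6.05 units in BNCT and 4.34 in control, and 90th percentiles of 98.2 and 52.6. On each array 49 of the 131 members read below the blank mean, and of all 2632 probes 807 did in BNCT and 968 in control. The brightest blank spot, at 274.9 units in BNCT and 287.9 in control, was passed by 55 members in BNCT (42.0%, against 26.4% of all probes) and by 31 in control (23.7%, against 15%). Among the 100 brightest miRNA probes of an array, 9 were members in BNCT and 8 in control, where 131 of all 2632 probes were members.

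**Figure D1:**
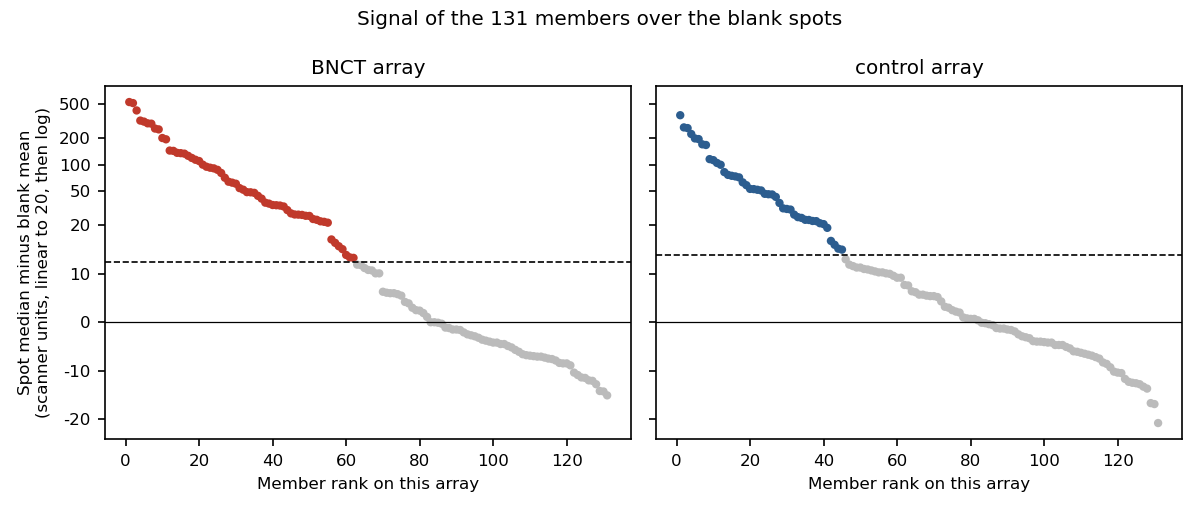
Signal of the 131 members over the mean of the blank spots, in scanner units, ranked within each array, with BNCT left and control right, and the axis linear to 20 units and logarithmic above. The dashed line is the detection limit, passed by 62 members in BNCT and 45 in control (coloured points), and the rest lie near the blank mean at 0.

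The 12 brightest members were all brighter in raw units on the BNCT array, as were 528 of all 630 probes detected on both arrays. The 11 of these members with a sequence hold 35 to 72.2% G. miR-4463 was the brightest, at 775.8 units in BNCT and 626.1 in control, which ranked it 17 and 13 among all miRNA probes. It lies on the strand of the non-coding gene LOC101928540 and opposite to the protein-coding gene FILIP1. miR-4530 read 762.0 units in BNCT and 524.6 in control. miR-4516, encoded on the strand opposite to PKD1, the gene of the kidney membrane protein polycystin-1, read 672.2 and 519.9 units on the BNCT and control arrays. These 3 stood above the other members on both arrays. miR-4484 lies within the span of UROS, which encodes a heme synthesis enzyme, and read 574.1 units in BNCT and 482.1 in control. miR-4466 lies opposite to ARID1B, a subunit gene of a chromatin remodelling complex, and read 565.6 units in BNCT and 453.9 in control. miR-4488 read 551.8 units in BNCT and 457.3 in control, and it lies in no annotated gene span. miR-4442 lies on the strand of TOP2B, a DNA topoisomerase gene, and read 549.2 units in BNCT and 425.7 in control.

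The other members of the brightest 12 followed in steps, all of them clear of the limit on both arrays. miR-4508 read 513.7 units in BNCT and 428.6 in control. miR-4446-3p, from a hairpin on the strand of SIDT1, a transmembrane protein gene, read 507.9 units in BNCT and 373.4 in control. miR-4505, opposite to MIDEAS, a histone deacetylase complex gene, read 456.3 units in BNCT and 370.3 in control. miR-4478 read 449.5 units in BNCT and 357.4 in control, and miR-4462 read 389.9 in BNCT and 362.4 in control. Probes differ in affinity, so these ranks order spots and not amounts of RNA. The next 4, named after their values were seen, were miR-4429 at 398.3 units in BNCT and 334.1 in control, miR-4443 at 399.5 and 329.4, miR-4447 at 388.1 and 339.9, and miR-4496 at 391.2 and 332.4.

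**Figure D2:**
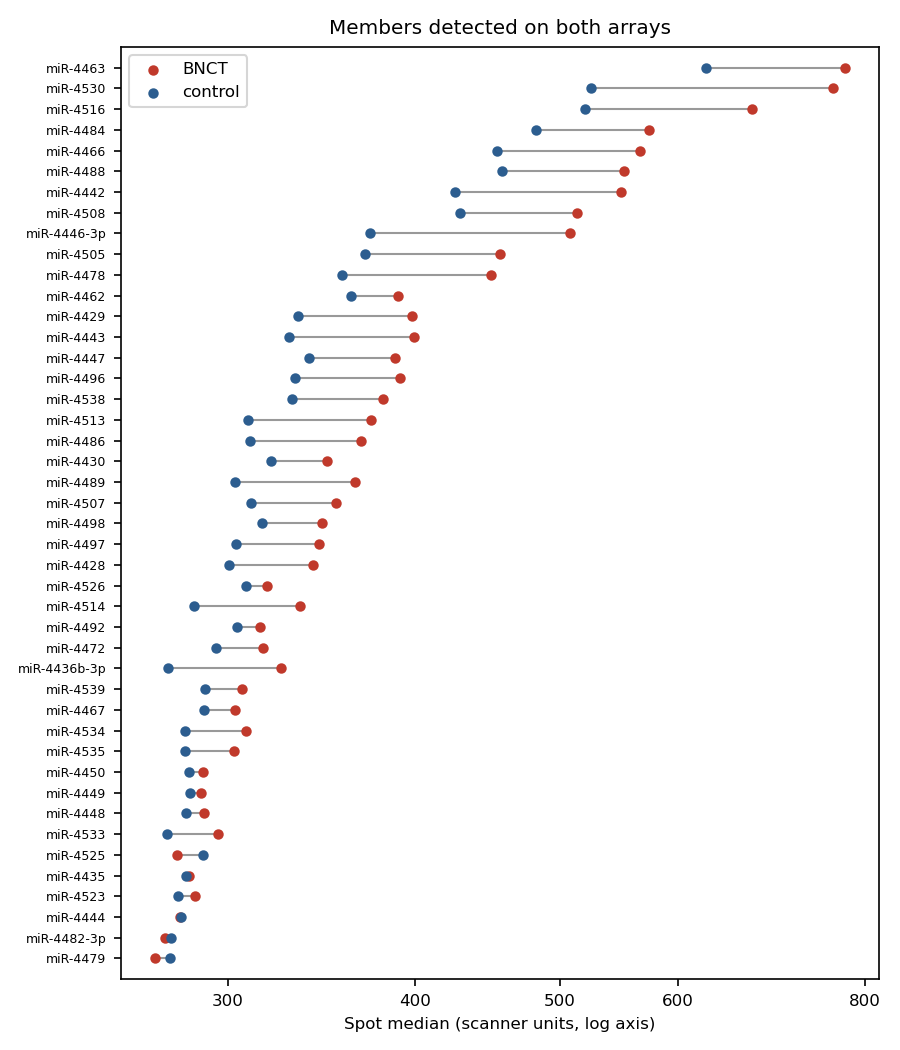
Spot medians of the 44 members detected on both arrays, in scanner units on a log axis, sorted by their mean over the arrays, with BNCT in red and control in blue. miR-4463 heads the series at 775.8 units in BNCT and 626.1 in control, and 40 of the 44 points for BNCT lie to the right of their control point. Of all 630 probes detected on both arrays, 528 were brighter in BNCT.

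The signal was higher in members rich in G. Across the 123 members with a sequence, the share of G in the mature strand and the spot median had a Spearman rho of 0.75 in BNCT and 0.67 in control. For the other 2214 probes with a sequence it was 0.48 and 0.36 on those arrays. These are descriptions across probes that share an array and a hybridization, so no p is given. The median G share was 33.3% for members and 27.3% for the other probes, while the share of G and C together was 50% for members and 52.2% for the others. All 18 members with 50% G or more were detected in BNCT and 16 in control. The exceptions in control were miR-4483 at 281.6 units in BNCT and 261.1 in control, and miR-4481 at 270.6 in BNCT and 268.6 in control, both named after their values were seen.

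Detection was less common below 40% G. Of 34 members with 40 to under 50% G, 29 were detected in BNCT and 21 in control. Of 25 members with 30 to under 40%, 7 were detected in BNCT and 3 in control. Of 29 members with 20 to under 30%, 1 was detected in BNCT and 2 in control, and of 17 members under 20%, 2 and 0. Other probes of the 2 upper classes were detected at 98.2% in BNCT and 90.5% in control with 50% G or more, against 100% and 88.9% of members, and at 81.2% and 60.7% with 40 to under 50%, against 85.3% and 61.8% of members. With 20 to under 30% G, 15.5% of the other probes were detected in BNCT and 12% in control, against 3.45% and 6.90% of members. With 30 to under 40% G, 34.8% of the other probes were detected in BNCT and 24% in control. Under 20% G, 19.4% of the other probes were detected in BNCT and 16.3% in control. In each class under 40% G, members had the lower detected share on both arrays. The letters GGG, searched in the mature strand only, occurred in 52 of the 123 members (42.3%) and in 715 of the 2214 other probes (32.3%). Of members with GGG, 82.7% were detected in BNCT and 65.4% in control, and of members without it 19.7% and 11.3%. Of other probes with GGG, 67.4% were detected in BNCT and 55.0% in control, and of those without it 20.6% and 16.1%.

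**Figure D3:**
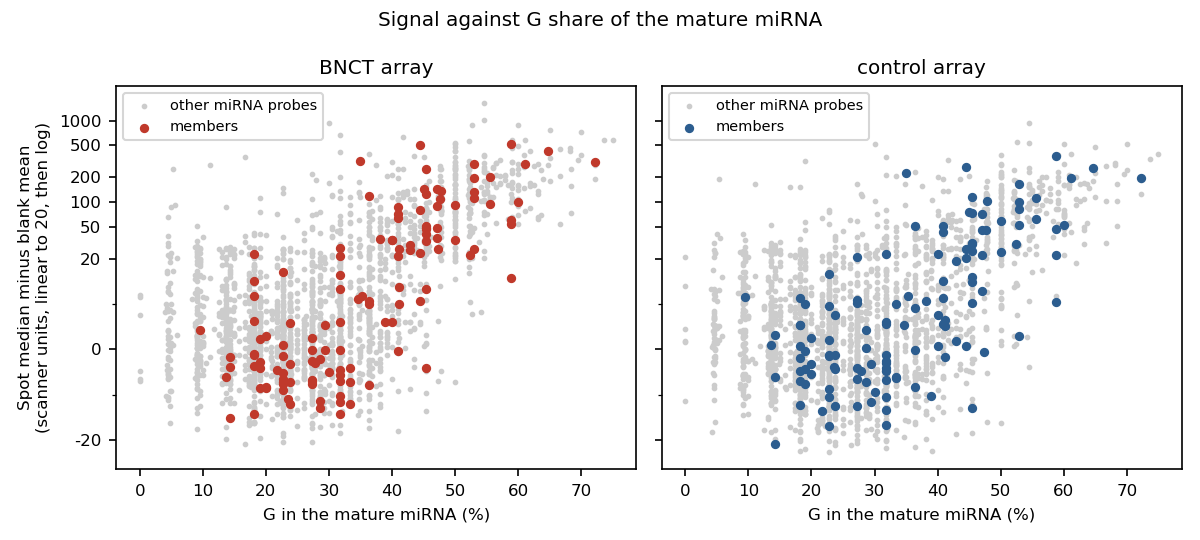
Spot median over the blank mean, in scanner units, against the G share of the mature miRNA on the BNCT array (left) and the control array (right), for 123 members (coloured) and 2214 other probes (grey), with the axis linear to 20 units and logarithmic above. Members with 50% G or more lie above the blank mean on both arrays, with medians of 107 units in BNCT and 60.2 in control over it.

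Members under 20 bases long stood apart in detection and in G share. Of 33 such members, 24 were detected in BNCT and 18 in control, and these had a median G share of 47.1%. Of 31 members with 20 or 21 bases, 10 were detected in BNCT and 7 in control, with a median G share of 28.6%. Of 59 members with 22 bases or more, 23 and 17 were detected, with 31.8% G. Length and spot median had a Spearman rho of -0.33 in BNCT and -0.26 in control across members. Across the other probes it was -0.02 and -0.03 on those arrays. The separate parts of length and G share were not tested. Of 108 members named without an arm, 57 were detected in BNCT and 42 in control, and their median G share was 39.4%. The 12 members named as 3p arms had 3 detected on each array at a median G share of 27.3%, and the 11 named as 5p arms had 2 detected in BNCT and 0 in control, at 19.0%.

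No hairpin had both of its arms detected on both arrays. Of 11 hairpins with both arms on the array, 3 had an arm detected on both arrays, in each case the 3p arm. The hairpins are printed with both mature arms in capitals, 5p first, because the arms share a locus and differ in base content.
MIR4446: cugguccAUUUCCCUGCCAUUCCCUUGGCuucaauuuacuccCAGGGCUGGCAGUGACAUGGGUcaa (chr3:113594876-113594942, plus strand)
MIR4436B1: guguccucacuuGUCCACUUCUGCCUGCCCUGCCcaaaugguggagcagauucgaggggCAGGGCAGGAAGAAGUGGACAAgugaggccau (chr2:110086433-110086523, minus strand)
MIR4482: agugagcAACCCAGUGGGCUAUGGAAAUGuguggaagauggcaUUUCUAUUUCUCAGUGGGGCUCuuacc (chr10:104268336-104268405, minus strand)
miR-4446-5p read 248.8 units in BNCT and 259.2 in control, under the limit on both, beside 507.9 and 373.4 units for its 3p partner. Its G share is 13.6%, and that of miR-4446-3p is 45.5%. miR-4436b-5p read 278.1 units in BNCT and 263.5 in control, and miR-4436b-3p read 325.4 and 273.3, at G shares of 18.2% and 40.9%. miR-4482-5p read 240.7 units in BNCT and 255.3 in control, and miR-4482-3p read 272.0 and 274.9 units. Here the detected arm holds less G, 22.7% against 31.8%, and both its readings were close to the limit. Probe affinities of 2 arms differ, so these values do not give their ratio.

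Gene context was read from gene spans of the same RefSeq build, with strand where the promoter table gave it, and exons were not used here. Of the 123 members with a position, 43 lay inside a protein-coding gene on its strand, 14 inside another gene on its strand and 12 opposite to the gene. A further 19 lay in a gene span whose strand was not given, and 35 lay outside gene spans. Members on the strand of a protein-coding gene had 22 of 43 detected in BNCT (51.2%) and 14 in control (32.6%). Those opposite to a gene had 7 of 12 in BNCT and 4 in control. The 4 were miR-4516, miR-4466, miR-4505 and miR-4513. miR-4513 lies opposite to the kinase gene CSK, was named after its value was seen, and read 373.9 units in BNCT and 309.4 in control. Those on the strand of another gene had 6 of 14 in BNCT (42.9%) and 5 in control (35.7%), and those in a gene of unknown strand 10 of 19 in BNCT (52.6%) and 8 in control (42.1%). Those outside genes had 12 of 35 detected in BNCT (34.3%) and 11 in control (31.4%). The classes differed in base content as well, with a median G share of 36.4% on the strand of protein-coding genes and in genes of unknown strand, 32.6% on the strand of other genes, 39.5% opposite to genes and 28.6% outside genes. The part of base content in these counts was not tested.

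**Figure D4:**
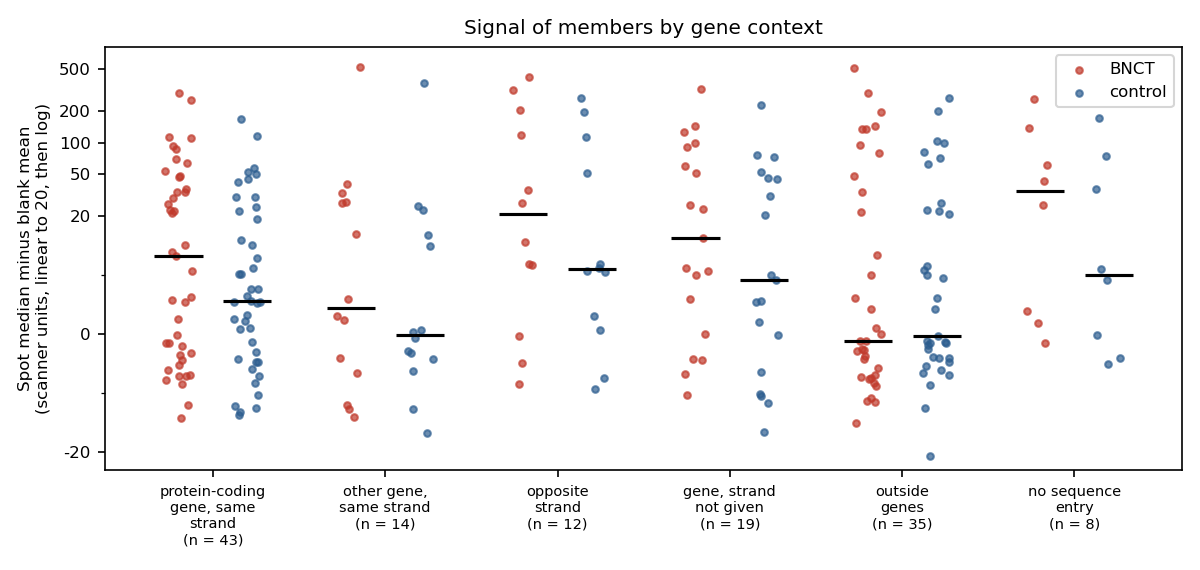
Spot median over the blank mean, in scanner units, for the members in each class of gene context, with BNCT in red to the left of control in blue, medians as black bars, and an axis linear to 20 units and logarithmic above. Every class holds members below the blank mean on both arrays, and the brightest member in BNCT lies 520.9 units over it on the strand of another gene, 294.2 on the strand of a protein-coding gene and 417.3 opposite to a gene.

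Members inside genes of the B lineage were picked out after their values were seen. The immunoglobulin heavy chain locus IGH, which is rearranged in B cells, holds 4 members on chromosome 14. Pairs of them share runs of 4 to 10 bases.
miR-4538: gAGCUUGGaugagcugggcuga (chr14:105858221-105858242, minus strand)
miR-4507: cUGGGUUGggcugggcuggg (chr14:105858125-105858144, minus strand)
miR-4539: gCUGAACUgggcugagcugggc (chr14:105857513-105857534, minus strand)
miR-4537: uGAGCCGAgcugagcuuagcug (chr14:105859532-105859553, minus strand)
The longest run that miR-4538 and miR-4539 share is 10 bases, that of miR-4507 and miR-4538 is 9 bases, and that of miR-4507 and miR-4537 is 4 bases. Whether their probes read independent RNAs was not tested, and the strand of IGH was not given. Runs shared by members outside IGH were not measured. miR-4538 read 380.8 units in BNCT and 331.2 in control, and miR-4507 read 354.5 and 310.7. miR-4539 read 306.3 units in BNCT and 289.5 in control, and miR-4537 was under the limit on both, at 265.7 and 258.1. The 3 detected members hold 45.5 to 60% G, and miR-4537 holds 36.4%. Normalized differences between the arrays were -0.04 for miR-4538 (spot error 0.14), 0.00 for miR-4507 (spot error 0.15) and -0.09 for miR-4539 (spot error 0.17), in log2, none beyond its spot error. PAX5, a transcription factor gene of the B lineage, holds miR-4476 and miR-4540 on its strand. miR-4476 read 276.4 units in BNCT and 263.8 in control, and miR-4540 was under the limit on both, at 247.8 and 256.9. Over the blank mean, the leukocyte list above summed to 40.7 units in BNCT and 0.8 in control, and its part in these readings was not tested.

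Other genes also hold several members, and these too were read after their values were seen. HDAC4, a histone deacetylase gene, holds miR-4440 and miR-4441 on its strand, and both were detected in BNCT alone. miR-4441 read 281.3 units in BNCT and 264.6 in control. MLLT3, which encodes a subunit of a transcription elongation complex, holds miR-4473 and both arms of miR-4474, all under the limit on both arrays. miR-4473 read 261.2 units in BNCT and 253.4 in control, with a G share of 18.2%. The transporter gene ABCA6 holds miR-4524a on its strand, with miR-4524b at nearly the same place on the other strand. Of these 4 arms only miR-4524a-5p passed a limit, at 270.0 units in BNCT and 269.4 in control. Among long non-coding RNA hosts, DANCR holds miR-4449, with 287.9 units in BNCT and 283.1 in control. MIR4435-2HG and NCAL1 each hold a locus of miR-4435, which read 282.4 units in BNCT and 281.3 in control, and its probe does not separate the loci. Members in HDAC4 and in MLLT3 were thus alike in their calls. Those in ABCA6 differed through miR-4524a-5p alone, which read close to the limit.

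A few members share the seed of well-known families. These were also picked out after their values were seen, since a shared seed groups miRNAs by their likely targets.
miR-4458: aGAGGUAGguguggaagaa (chr5:8460933-8460951, plus strand)
miR-4500: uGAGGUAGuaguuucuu (chr13:87618671-87618687, minus strand)
miR-4429: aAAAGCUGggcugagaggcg (chr2:11540652-11540671, minus strand)
The seed GAGGUAG is that of the let-7 family, which restrains growth genes, and 9 other probes on the array hold it. miR-4458 read 281.5 units in BNCT and 257.5 in control, and miR-4500 read 260.4 and 255.0. Of the 9 let-7 probes, 1 was detected in BNCT and 0 in control, at 241 to 272 units in BNCT and 237 to 262 in control. miR-4429 has the seed of miR-320b, miR-320c and miR-320d. It read 398.3 units in BNCT and 334.1 in control. These 3 miR-320 probes read 255 to 293 units in BNCT and 259 to 265 in control, and 2 of them were detected in BNCT and 0 in control. Seeds were compared only among the 2337 probes matched to a sequence, so other probes with these seeds may be missing. Within the block 5 seeds were each held by 2 members. miR-4492 and miR-4498 share GGGCUGG and were both detected, miR-4492 at 315.1 units in BNCT and 304.3 in control and miR-4498 at 346.8 and 316.0. miR-4516 shares GGAGAAG with miR-4434, which was under the limit at 247.8 units in BNCT and 252.2 in control. miR-4538 shares AGCUUGG with miR-4453, which was also under it, at 260.9 units in BNCT and 258.8 in control.

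BNCT and control were compared on log2 levels after background correction on the blank spots and quantile normalization over all miRNA probes, so that both arrays have 1 distribution of levels. Differences are BNCT minus control. The spot error beside them combines the spread of the blank spots and of the spike control spots, and it covers neither cultures nor slides. Fewer vesicles and less RNA per vesicle cannot be told apart in such data. No member detected on both arrays differed 2-fold in either direction, and 0% of the 630 probes detected on both did. The 44 members had a median difference of -0.03 with an SD of 0.19, where all 630 probes had -0.02 and 0.22. Of the 44, 21 were higher and 23 lower in BNCT. At 0.5 on the log2 scale, 1 member was higher (1.9% of all probes were) and 0 were lower (1.75% of all probes were). Beyond 3 spot errors, 1 member was higher (2.54% of all probes were) and 0 were lower (1.75%). These shares are near those of all probes. Without normalization 42 of the 44 members were higher in BNCT, with a median of 0.51, where all probes had 0.49.

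miR-4436b-3p had the largest higher difference, at 0.59 (spot error 0.19). Its level was 6.62 in BNCT and 6.03 in control, and its control reading of 273.3 units lay just above the limit of 272.0. Its sequence is cAGGGCAGgaagaaguggacaa, encoded at 2 places on chromosome 2, 1 of them on the strand of MALL, a membrane protein gene. The sign held under all 10 other settings of correction and scaling, and the size ran between 0.17 and 1.91, the lowest with the scanner's background column. miR-4514 followed at 0.37 (spot error 0.17), with 334.9 units in BNCT and 284.8 in control. Its size ran between 0.12 and 1.28, and its sign held too. The other 3 of the 5 largest higher differences turned under some setting. miR-4446-3p was 0.29 (spot error 0.13) and turned to -0.81 with the scanner's column. miR-4533, with 295.5 units in BNCT and 273.1 in control, was 0.28 (spot error 0.20) and turned to -0.04 with median scaling and -0.08 with 75th percentile scaling. miR-4534, on the strand of the RNA polymerase subunit gene POLR2F, read 308.6 and 280.6 units in that order, was 0.22 (spot error 0.18) and turned to -0.04 with the scanner's column and -0.01 with 75th percentile scaling.

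The largest lower difference was that of miR-4525, on the strand of the GTPase gene RAB40B, at -0.42 (spot error 0.19). It read 277.2 units in BNCT and 288.6 in control, and it was dimmer in BNCT in raw units, as were miR-4482-3p, miR-4444 and miR-4479 of the 44. With the scanner's column it turned to 0.24, and spike scaling gave 0.17. miR-4526, with 318.4 units in BNCT and 308.5 in control, was -0.32 (spot error 0.15). miR-4462 was -0.30 (spot error 0.13), miR-4492 -0.29 (spot error 0.16) and miR-4463 -0.20 (spot error 0.13). All of these 4 had brighter raw spots in BNCT, and all 4 turned positive without normalization, at 0.22, 0.29, 0.24 and 0.46, and also with spike scaling and in the authors' values. Of the 12 brightest members, miR-4462, miR-4463 and miR-4446-3p, with miR-4484 at -0.15 (spot error 0.12, positive under 4 other settings) and miR-4478 at 0.13 (spot error 0.13), lay beyond 1 spot error, and none lay beyond 3. Members detected on both arrays that are not named by the rule, 22 in all, differed by -0.19 to 0.22.

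**Figure D5:**
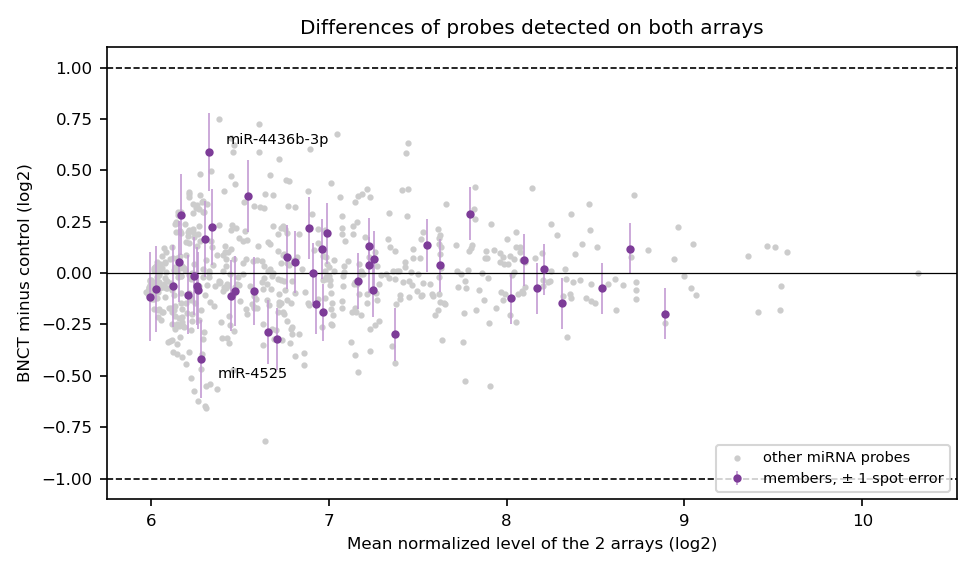
Difference of the normalized level, BNCT minus control on the log2 scale, against the mean level of the arrays, for 44 members (purple, bars are 1 spot error either way) and the other probes detected on both arrays (grey), with dashed lines at 2-fold. miR-4436b-3p is the highest member at 0.59 and miR-4525 the lowest at -0.42, and no member reaches a dashed line.

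Detection on 1 array alone was more common for BNCT. On the BNCT array alone 18 members were detected (13.7%, against 12.3% of all probes), and on the control array alone 1 was (0.763%, against 4.64%). For such members a lower bound of the fold was set. It is the level on the brighter array over that of the same probe on the other array, or over the lowest level detected there where that is higher. The bounds hold for this correction and normalization only. Of the 18, 13 had a bound above 1, and the largest was 1.30. miR-4440, on the strand of the histone deacetylase gene HDAC4, read 302.2 units in BNCT and 268.5 in control and was at least 1.30-fold higher in BNCT, but its log2 difference was 0.13 without background correction, 0.10 with 75th percentile scaling and -0.04 with the scanner's column. miR-4487 read 298.6 units in BNCT and 258.0 in control, at least 1.27-fold higher in BNCT, against log2 differences of 0.18 without background correction, 0.14 with 75th percentile scaling and -0.04 with the scanner's column. miR-4499, on the strand of CRYL1, a crystallin-like enzyme gene, read 291.5 units in BNCT and 271.1 in control, at least 1.19-fold higher in BNCT. Its log2 difference was 0.08 without background correction and turned to -0.08 with median scaling, -0.11 with 75th percentile scaling and -0.20 with the scanner's column. The member detected in control alone was miR-4431, at 254.9 units in BNCT and 279.3 in control, at least 1.19-fold lower in BNCT. Its log2 difference was -0.14 without background correction, 0.02 with the scanner's column and 0.00 with spike scaling. Each bound rests on 1 spot per array.

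Other sets of probes on the array differed in detection and in G share. The 5p arms of the miR-6715 to miR-6895 entries, 175 probes, had 85.1% detected in BNCT and 75.4% in control at a median G share of 50%. The paired arms of the miR-4632 to miR-4804 entries, 210 probes, had 37.1% detected in BNCT and 31.4% in control at a median G share of 23.8%. The members lay between them in G share, at 33.3%, and in detection, at 47.3% in BNCT and 34.4% in control. They did not in median signal over the blank mean on the control array, which was 5.69 units for members, 6.15 for the miR-4632 to miR-4804 arms and 45.0 for the miR-6715 to miR-6895 arms. The median difference between the arrays was 0.00 for the first of these sets and 0.01 for the second, beside -0.03 for the members. With 1 array a group these differences were not tested.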

How the data were processed

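Exosomal RNA of 1 BNCT and 1 control sample was labelled with Cy5 and read on 1-colour 3D-Gene arrays, per the labels' protocols. The deposited scanner values are median intensities per spot, merged over 3 scanner gains per the file headers, with a background median for each spot and no scaling between arrays. Values processed by the authors were also deposited, as linear intensities, and the software that made them was not given in the sources used here.

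Spot medians were taken into R 4.3.3, corrected with limma 3.58.1 (nec on the blank spots, offset 50), put on the log2 scale and quantile-normalized over 2632 miRNA probes, without failed spots. The scanner's background column follows the spots' own signal and served as an alternative. Other alternatives were plain blank subtraction, no correction, an offset of 16, no normalization, median, 75th percentile, cyclic loess and spike scaling, limits at 5 SD or from spots without a probe, no detection filter, and the authors' values. The procedure was tested on simulated arrays. Counts used Python 3.11.15. Precision is limited by the number of arrays.

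The members and lists were chosen with earlier results of these data known. Named members were the 12 brightest, the 5 largest differences each way, the 3 largest bounds per array, shared seeds and paired arms with a member detected on both arrays. The size rule was 2-fold.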

Additional observations from a re-analysis of the deposited data

How the results depend on the processing

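No paired analysis was possible because each group has 1 array and no replicate number. Detection of members depended on the limit: with limits from spots without a probe 31 were detected in BNCT and 18 in control, and with limits at 5 SD 43 in BNCT and 28 in control. Over all miRNA probes, 404 in BNCT and 235 in control passed the limits from spots without a probe. At 5 SD 524 and 356 did. The median difference was 0.401 in the authors' values, 0.788 with spike scaling and 0.506 with no normalization. Under the other settings it lay between -0.078, with 75th percentile scaling, and 0.079, with the scanner's background column. Members 2-fold higher in BNCT numbered 2 with plain subtraction, 1 with an offset of 16, 9 with spike scaling and 3 in the authors' values, and 1 was 2-fold lower with the scanner's background column (miR-4488, at -1.10). Over all probes, 34, 5, 113 and 72 were 2-fold higher in the same order, and 11 were 2-fold lower with the scanner's column. Probes 2-fold lower numbered 16, 5, 0 and 15 in the first 4 of these settings, with no member among them. With no normalization 18 of all probes and 0 members were 2-fold higher. At 0.5 on the log2 scale, higher and lower members numbered 7 and 1 with plain subtraction, 3 and 1 with an offset of 16, 3 and 4 with the scanner's column, 37 and 0 with spike scaling, 19 and 2 in the authors' values, and 23 and 0 with no normalization. Over all probes these counts were 120 and 46, 53 and 37, 23 and 55, 472 and 0, 263 and 51, and 303 and 0 in the same order. Higher and lower members numbered 0 and 3 with median and with 75th percentile scaling. Over all probes the counts were 8 and 77 with median scaling and 5 and 99 with 75th percentile scaling. No member was higher by that much without background correction, with cyclic loess or at the 5 SD limit, and 2 were without a detection filter. Over all probes, 0 of 630, 10 of 630, 3 of 348 and 22 of 2630 were, in that order. The cause of each change was not tested. The offset shrinks differences of dim probes by construction.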
